A study of Homo sapiens with 4 samples.

Results

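Human chromosome 19 carried 2103 of the 41846 loops that were listed in at least 1 of 4 SMC1 HiChIP libraries. A member is any listed pair of 5 kb bins with both anchors on chromosome 19, whatever its span, and pairs were matched between libraries by the starts of both anchors. The list of the DMSO library held 945 chromosome 19 loops, that of APH 1472, that of H2O 1083 and that of HU 1127. All 4 lists held 534 of them, out of 9529 loops shared in this way over chromosomes 1 to 22 and X.

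The study exposed GM12878, a B lymphoblastoid cell line immortalised with Epstein-Barr virus, to drugs that slow DNA replication and mapped contacts held by cohesin. Aphidicolin (APH), which blocks the replicative DNA polymerases, was given at 0.4 µM for 18 h, with its solvent dimethyl sulfoxide (DMSO) as vehicle. Hydroxyurea (HU), which depletes deoxynucleotides by inhibiting ribonucleotide reductase, was given at 0.2 mM for 18 h, with water (H2O) as vehicle. Each group is 1 library of this 1 line, so no difference below has a replicate check, and differences between groups include any difference between libraries. The sample titles name another lymphoblastoid line, whereas the source, cell line and library name fields say GM12878. No expression was measured, so the identity of the cells was not tested here.

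SMC1 is a core subunit of cohesin, the ring complex that extrudes chromatin loops and is commonly halted at sites bound by CTCF. HiChIP joins proximity ligation to immunoprecipitation, so a contact is counted where an anchor was also recovered with the antibody. Chromosome 19 is the most gene-dense human chromosome, with many housekeeping genes, large clusters of KRAB zinc finger genes that encode DNA-binding repressors, and the leukocyte receptor cluster near its long-arm end.

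The promoters below belong to genes whose start lies in an anchor of a loop shared by all 4 libraries, and were chosen because the results turn on them. WDR18 lies at the loop with most counts, and EHD2 at a loop with more counts in a drug library. In a drug library FEM1A had more counts over its gene body and INSR fewer. The FEM1A loop with the highest HU ratio has its anchor at 4800001 to 4805000, outside the printed window. DACT3 and CEACAM5 were added after their values were seen. Sequences are from RefSeq on GRCh38.p14, the same build as hg38, from 250 bases before to 50 after the first start listed, 5′ to 3′ on the gene's strand. Capitals mark a match to a core of the CTCF motif, the letters CCANNAG directly followed by NNGGC, searched on both strands.
WDR18, chr19:982678-982977, plus strand: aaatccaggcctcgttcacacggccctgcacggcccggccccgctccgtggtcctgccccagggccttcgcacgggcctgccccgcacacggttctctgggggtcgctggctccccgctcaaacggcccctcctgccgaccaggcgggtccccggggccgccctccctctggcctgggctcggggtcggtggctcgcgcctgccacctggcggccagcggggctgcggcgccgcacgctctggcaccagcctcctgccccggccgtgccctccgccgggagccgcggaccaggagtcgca
FEM1A, chr19:4791484-4791783, plus strand: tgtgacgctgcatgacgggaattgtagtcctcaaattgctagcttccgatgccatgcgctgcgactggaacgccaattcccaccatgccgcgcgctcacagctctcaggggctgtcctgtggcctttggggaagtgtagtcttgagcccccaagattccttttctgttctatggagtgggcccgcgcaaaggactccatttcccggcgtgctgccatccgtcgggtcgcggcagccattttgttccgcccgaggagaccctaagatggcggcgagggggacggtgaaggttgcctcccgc
DACT3, chr19:46661133-46661432, minus strand: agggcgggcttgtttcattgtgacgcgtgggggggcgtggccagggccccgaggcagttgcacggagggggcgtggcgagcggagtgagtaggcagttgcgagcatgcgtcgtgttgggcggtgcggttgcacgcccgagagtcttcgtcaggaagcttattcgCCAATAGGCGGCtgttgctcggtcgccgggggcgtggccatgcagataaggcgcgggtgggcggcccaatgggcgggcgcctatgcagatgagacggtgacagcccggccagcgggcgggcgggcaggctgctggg
EHD2, chr19:47713172-47713471, plus strand: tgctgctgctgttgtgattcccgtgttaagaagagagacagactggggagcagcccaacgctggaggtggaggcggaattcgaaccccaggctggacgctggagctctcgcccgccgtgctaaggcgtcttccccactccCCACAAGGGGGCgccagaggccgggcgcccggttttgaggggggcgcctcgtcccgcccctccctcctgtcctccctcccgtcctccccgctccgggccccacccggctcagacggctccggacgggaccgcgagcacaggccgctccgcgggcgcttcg
INSR, chr19:7294365-7294664, minus strand: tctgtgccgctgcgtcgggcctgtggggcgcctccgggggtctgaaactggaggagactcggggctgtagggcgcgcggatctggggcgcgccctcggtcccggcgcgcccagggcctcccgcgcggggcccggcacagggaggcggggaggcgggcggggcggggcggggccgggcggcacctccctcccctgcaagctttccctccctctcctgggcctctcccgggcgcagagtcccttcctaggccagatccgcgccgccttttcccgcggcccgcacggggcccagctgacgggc
CEACAM5, chr19:41708376-41708675, plus strand: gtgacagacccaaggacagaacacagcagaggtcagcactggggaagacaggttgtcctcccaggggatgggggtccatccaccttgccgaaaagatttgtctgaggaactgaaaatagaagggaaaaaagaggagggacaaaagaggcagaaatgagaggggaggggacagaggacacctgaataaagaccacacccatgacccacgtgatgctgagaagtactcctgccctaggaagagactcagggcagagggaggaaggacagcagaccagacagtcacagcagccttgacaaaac

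Only DACT3 and EHD2 of these 6 held the motif, at bases 165 and 141 of the window, both on the gene's strand. The windows of KMT2B and CLPTM1, also at shared loops but not printed, held none. The CEACAM5 window held 2 CpG dinucleotides, against 34 in WDR18, 36 in INSR, 33 in DACT3, 30 in EHD2 and 23 in FEM1A. Of 1451 protein-coding genes on chromosome 19, 1185 were matched to a promoter. The motif stood in 7 of the 129 windows whose start lay in an anchor of a shared loop (5.43%, 95% exact binomial interval 2.21 to 10.9). Their genes were MRPL4, C19orf12, DMKN, NECTIN2, DACT3, EHD2 and FLT3LG. It stood in 15 of 379 windows in any anchor (3.96%, 2.23 to 6.44) and in 18 of 806 in none (2.23%, 1.33 to 3.51). Over the promoters of all chromosomes used, 426 of 15811 windows of this length held it (2.69%). On the other chromosomes the share was 3.70% in any anchor and 2.32% in none, so the order on chromosome 19 was also seen elsewhere. Anchored windows of chromosome 19 had a median GC content of 65.3% and a median of 25 CpG dinucleotides, against 62.0% and 19 outside anchors. A match to these letters is a description of the window and not a measured CTCF site.

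Loops on chromosome 19 were dense and short. The chromosome had 36.2 loops per Mb between its outermost anchors, the highest of the 23 chromosomes used, and 25.0 protein-coding genes per Mb, also the highest. Relative to its genes it was poor in loops, with 1.45 per gene, and only chromosome X was lower, with 0.764. The median span of its loops was 65 kb, the shortest of all chromosomes, and chromosome 17 followed with 75 kb. These are descriptions of 1 chromosome against others in the same libraries, and the difference between chromosomes was not tested over replicates.

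Short loops made up most of every list. Of the chromosome 19 loops, 66.0% spanned less than 100 kb in DMSO (95% exact binomial interval 62.9 to 69.1) and 70.7% in APH (68.3 to 73.0), and 67.5% in H2O (64.6 to 70.3) and 72.7% in HU (70.0 to 75.3). On the other chromosomes the shares were 44.1%, 50.2%, 44.5% and 50.4% in the same order. Both drug libraries were above both vehicle libraries on chromosome 19 and elsewhere, by 4.69 percentage points for APH over DMSO and 5.17 for HU over H2O on chromosome 19. Loops of 250 kb or more made up 2.65% of the chromosome 19 list in DMSO and 2.45% in APH, and 2.59% in H2O and 2.48% in HU, whereas the other chromosomes held between 12.97% and 16.9%. The longest chromosome 19 loops spanned 590 kb in DMSO and 585 kb in APH, and 585 kb in H2O and 655 kb in HU. Such intervals cover counting error only, and without molecular identifiers some counts may be copies of one molecule.

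**Figure D1:**
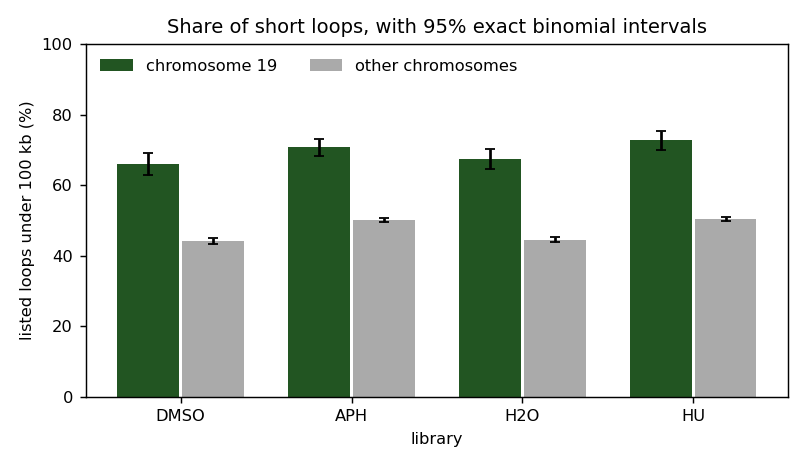
Share of listed loops that span less than 100 kb in each library (percent of loops, y axis), for chromosome 19 (green) and the other chromosomes (grey), with 95% exact binomial intervals as bars. The chromosome 19 bars lie between 66.0% and 72.7%, above every bar of the other chromosomes.

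Gene starts sat at both ends of 92 of the 2103 loops (4.37%, 3.54 to 5.34), the largest share of any of the 22 chromosomes with starts used, against 1.56% on the others together. A start was found in 19.6% of the bins used as anchors, whereas 9.14% of all chromosome 19 bins between the outermost anchors hold one. This ratio of 2.15 was rank 21 of the 22 chromosomes, with chromosome 17 at 2.69 and chromosome 4 at 5.75, so the share of anchors at starts is high beside a high share of bins with a start. Both anchors overlapped gene bodies in 46.6% of loops, against 41.4% on the other chromosomes, where 61.8% of the chromosome 19 bins lie on a gene body, 57.6% of those on chromosome 17 and 39.04% of those on chromosome 4. Loops with both anchors inside a single gene were rarer than on any other chromosome, at 12.03% against 20.3%. Loops with no anchor on a gene made up 11.7%, against 19.7%.

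Loops were spread unevenly along the chromosome, and stretches with and without zinc finger genes were found among those that held many loops and those that held none. In windows of 2 Mb, 188 loops fell between 10 and 12 Mb, where ICAM1, DNMT1, SMARCA4 and 10 zinc finger genes lie, and 161 between 16 and 18 Mb, with 0 zinc finger genes. The windows from 12 to 14 Mb and from 44 to 46 Mb, with 15 and 16 zinc finger genes, held 158 and 116 loops, whereas that from 56 to 58 Mb, with 48, held 6. The longest stretch with no anchor in any library ran from position 19825001 to 28010000, which includes the centromere, and held 36 protein-coding genes, of which 34 encode zinc finger proteins. A stretch of 2.07 Mb from 56335001 held 67 genes with 53 zinc finger genes, and one of 1.72 Mb from 36175001 held 30 with 29. Another of 2.54 Mb from 52540001 held 77 genes, among them 22 zinc finger genes and the leukocyte receptor cluster. Empty stretches from 29970001 to 32285000 and from 42600001 to 43430000 held 2 genes with 1 zinc finger gene and 12 genes with 0. The absence of a listed loop there is no measured 0, since only called pairs are listed.

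Loops touched lymphoid, stress response and repair genes more frequently than zinc finger genes. An anchor lay on 651 of the 1451 protein-coding genes in at least 1 library (44.9%, 42.3 to 47.5), and on 300 in a loop shared by all 4. Of 264 zinc finger genes 39 had an anchor (14.8%, 10.7 to 19.6), and 13 had one in a shared loop. These genes lie in clusters, with 53 in 1 empty stretch and 34 in another. The intervals take genes as independent and may therefore be too narrow. Of the 1187 other genes 612 had one (51.6%, 48.7 to 54.4). Gene length ran the other way, with a median of 23.3 kb for zinc finger genes and 12.6 kb for the rest.

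Of 37 B lymphocyte and lymphoid signalling genes 29 had an anchor (78.4%, 61.8 to 90.2). GNG7, a G protein gamma subunit, was touched by 52 loops, the most of the list, and POU2F2, which encodes the B cell transcription factor OCT2, by 15. Numbers of loops by gene, here and below, are not adjusted for gene length. CD79A, part of the B cell receptor, had 7 loops, and CD22 and the transcription factor gene SPIB had 2 and 4. CD37 and JAK3, by contrast, had none listed. Among 27 genes of the NF-kB, AP-1, p53 and stress responses 20 had an anchor (74.1%, 53.7 to 88.9), led by FOSB with 16 loops and GADD45B with 14. Among 39 genes of DNA replication, repair and chromatin 28 had one (71.8%, 55.1 to 85.0). The chromatin remodelling ATPase gene SMARCA4 was touched by 30 loops, ERCC1, of nucleotide excision repair, by 24, and DNMT1, the maintenance DNA methyltransferase, by 6. Ribosomal protein genes, at 7 of 13 (53.8%, 25.1 to 80.8), lay near the share of all genes.

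Genes of other cell types had an anchor less frequently in these lists. Of 43 genes of myeloid, erythroid, natural killer and T cells 9 had an anchor (20.9%, 10.0 to 36.04), and no loop was listed at any LILR or KIR receptor gene of the list. The LILR and KIR genes lie together in the leukocyte receptor cluster, so they are not independent of one another. Of 55 genes restricted to muscle, nerve, liver or epithelium 16 had one (29.1%, 17.6 to 42.9). In loops shared by all 4 libraries the share of these 55 was 18.2% (9.08 to 30.9), against 20.7% of all chromosome 19 genes, and those with any loop had a median of 3.5 against 3. In this list, CACNA1A, a neuronal calcium channel gene, was touched by 24 loops and RYR1, the muscle ryanodine receptor gene, by 21. Some genes, ICAM1 among them, stand in 2 of these lists.

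**Figure D2:**
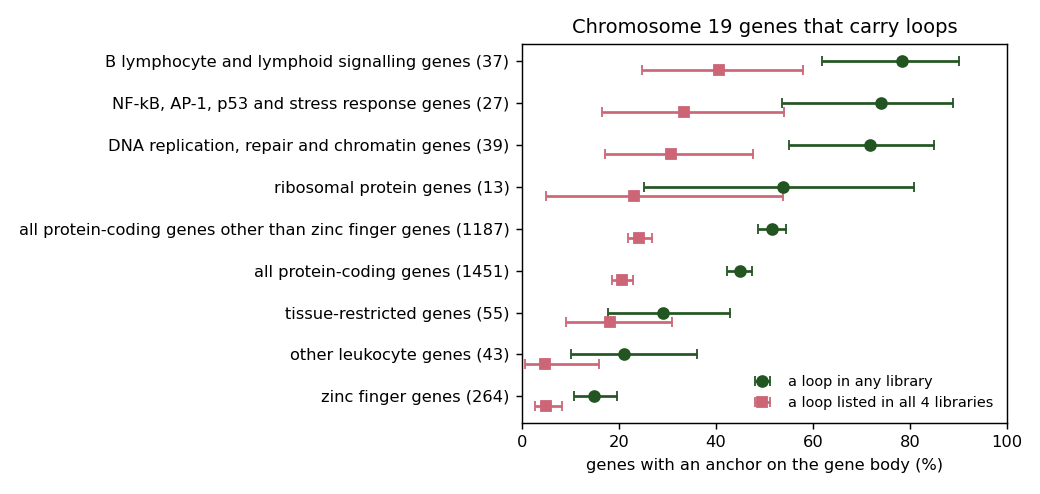
Share of chromosome 19 genes with an anchor on the gene body (percent, x axis) for each gene list, with the number of genes in parentheses. Green circles are loops in any library, red squares loops listed in all 4, and bars are 95% exact binomial intervals, which run from 10.7% to 19.6% for zinc finger genes and from 61.8% to 90.2% for B lymphocyte genes in any library.

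ZNF20 and ZNF69, the zinc finger genes with most loops (15 each), lie near 12 Mb. Where 4 counts are given without names, here and below, they stand in the order DMSO, APH, H2O, HU. The bin at 12140001 to 12145000, on ZNF20 and ZNF625, was an anchor of 7 shared loops, with 244 counts in DMSO and 303 in APH, and 293 in H2O and 285 in HU. A bin at 13880001 to 13885000, on NANOS3 and BRME1, was also an anchor of 7, with 219, 281, 223 and 246 counts. BRME1 encodes a meiotic recombination factor and NANOS3 a germ cell RNA-binding protein. The next 3 bins, at 35465001, 39670001 and 15555001, had 6 shared loops each and lay on no protein-coding gene. Shared loops of chromosome 19 used 646 anchor bins, of which 390 had a single loop (60.4%, against 67.1% elsewhere) and 43 had 4 or more (6.66%, against 4.56%).

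The strongest loop joined KISS1R, which encodes the kisspeptin receptor, to the start of WDR18, a gene for a ribosome biogenesis factor, over 60 kb. It had 238 counts in DMSO and 282 in APH, and 215 in H2O and 225 in HU, the highest count of chromosome 19 in each library. Per 100000 counts in shared loops these were 79.2, 74.8, 66.0 and 69.9, so the levels of both drugs lay between those of the vehicles. A loop of 40 kb from ERCC1 to FOSB, an AP-1 subunit gene, followed with 168, 204, 205 and 208 counts. The loop from an intergenic bin to ZBTB32 and the start of KMT2B, a histone H3 lysine methyltransferase gene, spanned 25 kb and had 174, 183, 168 and 193.

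The next loops were of similar strength in all libraries, with exceptions in single ones. A loop to CCDC194 had 159, 217, 150 and 171 counts in DMSO, APH, H2O and HU. HOOK2 and PRDX2, the latter a peroxiredoxin that removes peroxides, were joined over 20 kb by 124, 185, 171 and 144 counts. AP1M2 and SLC44A2 were joined by 144, 191, 139 and 140. Free fatty acid receptor gene FFAR1 was joined over 115 kb to an intergenic bin by 139, 174, 143 and 137.

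The loop between GNG8 and DACT3, of starts at both ends, had 108, 133, 144 and 182 counts and was highest in HU also after scaling, at 56.5 per 100000 against 35.96 in DMSO, 35.3 in APH and 44.2 in H2O. Intergenic bins at 44720001 and 44770001 were joined by 123, 177, 124 and 140 counts, and KASH5 and SLC17A7 by 121, 167, 134 and 138. Together the 10 strongest loops held from 8.06% to 8.32% of the counts in shared chromosome 19 loops of a library. The shortest shared loop spanned 10 kb and the longest 345 kb, from ZNF491 to the ZNF20 bin, with 15, 18, 22 and 14 counts.

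**Figure D3:**
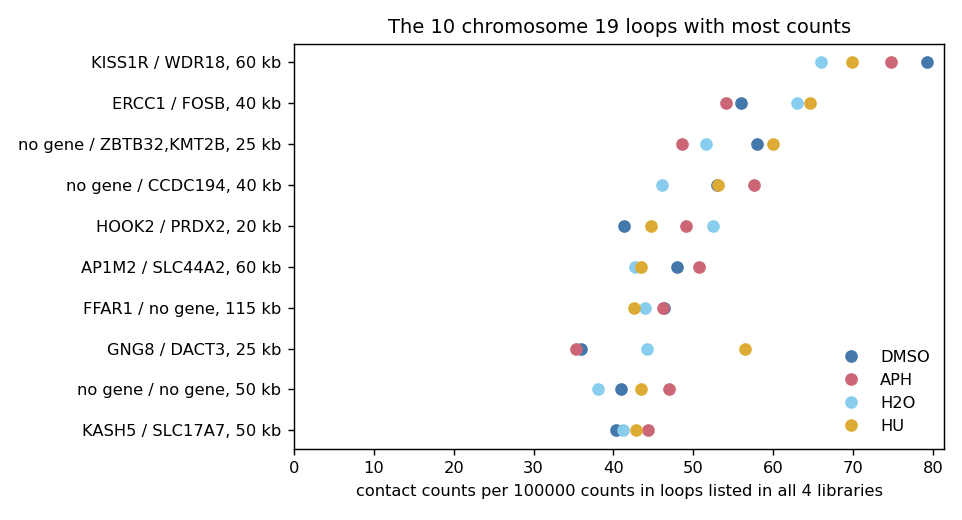
Contact counts per 100000 counts in shared loops (x axis) of the 10 chromosome 19 loops with most counts, 1 point per library, labelled by the genes on each anchor and the span. WDR18 leads at 66.0 to 79.2, and the GNG8 to DACT3 loop stands apart in HU at 56.5.

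The lists overlapped in part. Of the chromosome 19 loops listed in DMSO 78.2% were also listed in APH and 68.7% in H2O, where the other chromosomes gave 75.2% and 70.7%. Of those in HU 73.3% were also in APH and 62.8% in H2O, where the others gave 70.6% and 61.2%. Loops in all 4 lists made up 25.4% of the chromosome 19 loops, against 22.6% elsewhere. A total of 118 loops were listed in both drug libraries and neither vehicle, which is 5.61%, against 5.69% elsewhere, with median spans of 60 kb and 80 kb. In both vehicles and neither drug library there were 25, or 1.19% against 2.07%, with median spans of 105 kb and 137.5 kb. The longest list, that of APH, had 409 loops of its own, or 19.4% against 18.3%.

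Summed over shared loops, chromosome 19 held a similar part of the contacts of each library. Shared chromosome 19 loops held 18588 of 300320 counts in DMSO (6.19%), 23508 of 376948 in APH (6.24%), 19545 of 325634 in H2O (6.002%) and 20161 of 322048 in HU (6.26%). The log2 ratio of APH to DMSO, after scaling by all shared loops, was 0.01 (95% exact interval -0.02 to 0.04). For HU against H2O it was 0.06 (0.03 to 0.09), rank 2 of the 23 chromosomes. The 2 vehicles differed by -0.04 (-0.07 to -0.02) for H2O against DMSO, rank 22, so the low level of H2O moves with the HU ratio, which was 0.02 (-0.01 to 0.04) against DMSO.

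By span, and relative to all shared loops, short loops were higher and longer ones lower in both drug libraries. Below 100 kb, 363 loops had log2 ratios of 0.04 (0.01 to 0.08) for APH and 0.11 (0.08 to 0.15) for HU, where other chromosomes gave 0.08 and 0.07. From 100 to 250 kb, 161 loops had -0.08 (-0.13 to -0.02) for APH and -0.08 (-0.14 to -0.02) for HU, where other chromosomes gave -0.04 and -0.06. H2O against DMSO gave -0.06 (-0.09 to -0.02) below 100 kb and 0.00 (-0.06 to 0.06) from 100 to 250 kb. The 10 loops from 250 to 500 kb had intervals that include 0 in both drug contrasts, and no shared loop of chromosome 19 reached 500 kb. Set against loops of like span on other chromosomes, the ratio over all chromosome 19 loops was -0.04 (-0.06 to -0.01) for APH and 0.02 (-0.01 to 0.05) for HU.

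**Figure D4:**
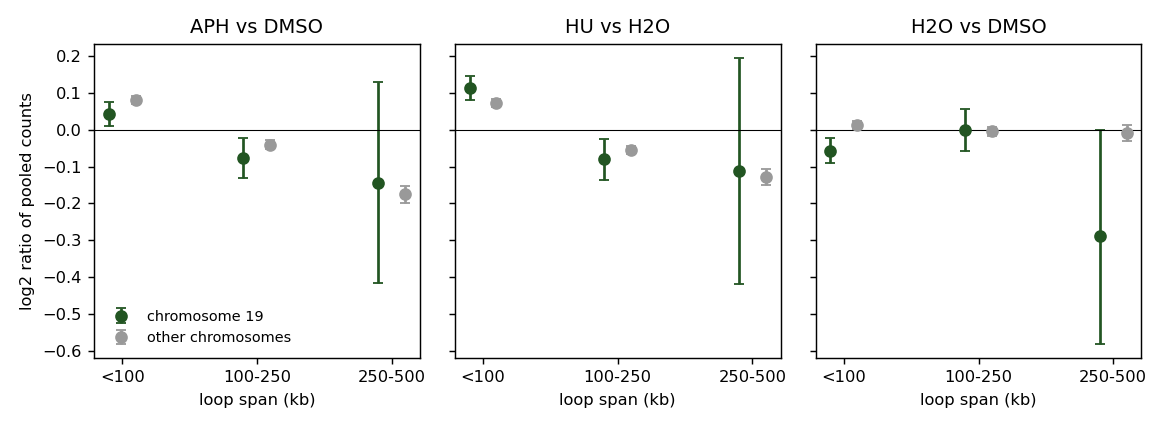
Log2 ratio of pooled counts in shared loops (y axis) by loop span in kb (x axis) for APH vs DMSO, HU vs H2O and H2O vs DMSO, for chromosome 19 (green) and the other chromosomes (grey), with 95% exact intervals that cover counting error only. On chromosome 19 the drug ratios are 0.04 and 0.11 below 100 kb and -0.08 and -0.08 from 100 to 250 kb.

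Few of the 534 loops shared by all 4 libraries passed the rule for a call. Loops missing from any of the lists could not be called. A loop is called here when its scaled ratio is at least 1.5-fold and the 95% interval excludes 1. The intervals are not adjusted for the number of loops, so calls can arise from counting error alone. For APH against DMSO 11 of 534 were called higher (2.06%, where 2.28% of shared loops on all chromosomes were) and 10 lower (1.87%, against 2.42%). For HU against H2O 23 were called higher (4.31%, against 3.41%) and 12 lower (2.25%, against 2.96%). Between the vehicles 4 were higher in H2O (0.749%, against 1.13%) and 3 lower (0.562%, against 1.08%). The 95% exact intervals of all 6 shares include the background. Scaled by all listed loops in place of the shared ones, the split was 1 higher and 74 lower for APH, 27 and 8 for HU, and 0 and 38 for H2O against DMSO. Median spans were 40 kb for loops higher in APH and 110 kb for those lower, and 60 kb and 120 kb for HU.

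The drug contrasts share no library, and 4 loops were called in both, none in opposite directions. The bins at 46515001 and 46540001, between PNMA8B and CALM3 on no protein-coding gene, were joined by 27 counts in DMSO and 75 in APH, and 29 in H2O and 62 in HU. Both drug libraries exceeded both vehicles, with log2 ratios of 1.15 (0.49 to 1.84) and 1.11 (0.45 to 1.80). CEACAM5, which encodes a carcinoembryonic antigen cell adhesion protein, was joined at its start to a bin 40 kb away by 29, 70, 29 and 65 counts, giving 0.94 (0.30 to 1.62) and 1.18 (0.53 to 1.86).

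A pair of intergenic bins near CEACAM8, at 42565001 and 42595001, had 16, 43, 27 and 55 counts, with ratios of 1.10 (0.24 to 2.03) and 1.04 (0.35 to 1.76). In this loop the vehicles differ from each other more than in the other 3. A loop of 195 kb from INSR, the insulin receptor gene, to a bin beyond its start was lower in both, with 58, 48, 63 and 40 counts, or -0.60 (-1.18 to -0.02) and -0.64 (-1.25 to -0.05). Over all chromosomes 44 of 9529 shared loops were called higher in both contrasts, 26 lower in both and 4 in opposite directions. On chromosome 19 these were 3, 1 and 0 of 534. Loops called in both contrasts were thus not particular to chromosome 19.

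**Figure D5:**
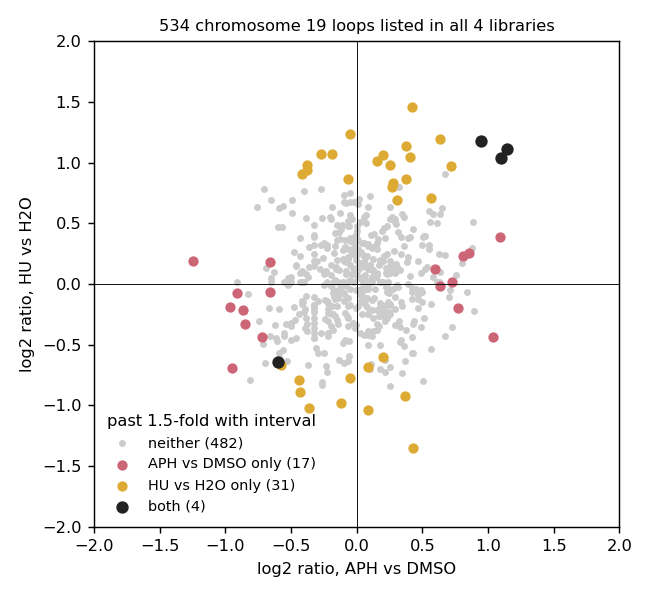
Log2 ratio of APH vs DMSO (x axis) against HU vs H2O (y axis) for the 534 chromosome 19 loops listed in all 4 libraries, 1 point per loop. Grey points (482) were called in neither contrast, red (17) in APH only, yellow (31) in HU only and black (4) in both, 3 at the upper right and 1 at the lower left.

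Other loops at the extremes were called in 1 drug contrast and not in the other, and the difference between the drugs was not tested. For APH the highest ratio outside those 4 loops was at GPR4 and EML2, with 18 counts in DMSO and 48 in APH, and 27 in H2O and 35 in HU (1.09, 0.28 to 1.96). The lowest were a loop of 175 kb to SLC17A7, a vesicular glutamate transporter gene, with 34, 18, 23 and 26 counts (-1.25, -2.16 to -0.38), one from BRME1 to IL27RA with 28, 18, 23 and 20 (-0.97, -1.91 to -0.06), and one at SIPA1L3 with 37, 24, 36 and 22 (-0.95, -1.76 to -0.17). At SIPA1L3 the HU ratio was -0.69 (-1.53 to 0.11). The APH count was below both vehicles in each of these 3, although the counts are small and the intervals wide.

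For HU the highest was a loop of 70 kb to FEM1A, with 19, 32, 14 and 38 counts (1.46, 0.54 to 2.46), followed by APOC1 to CLPTM1 with 24, 29, 18 and 42 (1.24, 0.41 to 2.12) and a loop within IGFL2 with 18, 35, 15 and 34 (1.20, 0.28 to 2.18). At IGFL2 the APH ratio was 0.63 (-0.23 to 1.54). The lowest ran to FAM32A, with 16, 27, 31 and 12 (-1.35, -2.45 to -0.35), to SMARCA4, with 15, 20, 29 and 14 (-1.03, -2.07 to -0.07), and to SLC27A1, with 46, 45, 43 and 21 (-1.02, -1.84 to -0.23). At FAM32A and SMARCA4 the H2O count was the highest of all 4 libraries after scaling, and against DMSO the HU ratios were -0.52 and -0.20.

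Summed over the shared loops that touch a gene, counts gave narrower intervals. Genes that share the same loops were taken as 1 place, and places needed at least 100 counts in the 2 libraries of a contrast. For APH 0 of 160 places were called higher (1.43% over all chromosomes), and 1 lower (1.09%), which was SAE1. For HU 3 of 154 were called higher (3.14%) and 0 lower (1.57%). For H2O against DMSO 0 of 152 were higher (0.551%) and 1 lower (0.597%), SLC8A2, with 86, 125, 61 and 64 counts in DMSO, APH, H2O and HU.

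For APH, 4 of 160 places were higher and 4 lower by the rule for named genes. That rule asks for an interval that excludes 0 and a ratio larger in size than that between the vehicles. For HU 8 of 154 places were higher and 3 lower by this rule. The intervals are not adjusted for the number of places, so places can pass from counting error alone. The like share over all chromosomes was not computed, so these numbers are no result about chromosome 19. CLPTM1, which encodes a multipass membrane protein, had 68 counts in DMSO and 120 in APH, and 81 in H2O and 116 in HU, with log2 ratios of 0.49 (0.05 to 0.94) for APH and 0.53 (0.11 to 0.96) for HU. FEM1A, a substrate receptor of a ubiquitin ligase, had 197, 303, 207 and 261, with 0.29 (0.03 to 0.56) and 0.35 (0.08 to 0.62). These were the only places whose interval excluded 0 in both drug contrasts, of 151 measured in both, and after scaling both drug libraries lay above both vehicles. Relative to loops of like span the APH intervals of both included 0, at 0.41 (-0.03 to 0.87) for CLPTM1 and 0.22 (-0.05 to 0.48) for FEM1A. With loops assigned within 5 kb of the gene start the HU interval of FEM1A also did, at 0.22 (-0.06 to 0.51), and with scaling by all listed loops its APH ratio was -0.084.

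NFILZ, with 62, 112, 72 and 71 counts, and CALM3, a calmodulin gene joined to the start of DACT3, with 93, 156, 108 and 98, had an interval above 0 in APH only. Their log2 ratios were 0.53 (0.07 to 0.997) and 0.42 (0.04 to 0.81), and for HU -0.00 (-0.50 to 0.49) and -0.12 (-0.53 to 0.28). Relative to loops of like span their APH intervals also included 0, at 0.45 (-0.01 to 0.92) for NFILZ and 0.34 (-0.04 to 0.73) for CALM3. With H2O as vehicle in place of DMSO the APH intervals of NFILZ, CLPTM1 and CALM3 included 0, at 0.43, 0.36 and 0.32, and that of FEM1A did not.

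SAE1, a subunit of the enzyme that activates SUMO, was lower in APH, with 59 counts in DMSO and 42 in APH, and 53 in H2O and 63 in HU (-0.82, -1.43 to -0.22). APH was the lowest of the 4 libraries, and against H2O the ratio was -0.55 (-1.17 to 0.07). The interleukin receptor gene IL12RB1 (99, 90, 93 and 88 counts) and its neighbour ARRDC2 (124, 115, 110 and 108) share a loop and had ratios of -0.47 (-0.89 to -0.04) and -0.44 (-0.82 to -0.06). EPS15L1, of clathrin-mediated endocytosis, had 279, 284, 259 and 242 and a ratio of -0.30 (-0.55 to -0.06). For these last 3 genes the DMSO level was the highest of the 4 libraries after scaling, and against H2O their intervals included 0.

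The largest HU ratio was at 1 place on 3 genes, AXL, a receptor tyrosine kinase gene, with CYP2S1 and HNRNPUL1. It had 40 counts in DMSO and 60 in APH, and 38 in H2O and 68 in HU (0.86, 0.26 to 1.47). EHD2, a membrane-trafficking ATPase gene whose promoter is printed above, had 39, 59, 39 and 67 (0.80, 0.21 to 1.41). At both places HU was the highest library and APH, with ratios of 0.26 and 0.27 and intervals that include 0, lay between HU and the vehicles. SLC5A5, the sodium iodide symporter gene, had 112, 171, 87 and 133 (0.63, 0.23 to 1.03), but against DMSO the HU ratio was 0.15 (-0.23 to 0.52).

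Smaller rises in HU were seen at EPOR, the erythropoietin receptor gene (65, 94, 66 and 91 counts, 0.48), at WDR88 (82, 109, 90 and 120, 0.43) and at GNG8 (0.35, 0.03 to 0.68), where the loop to DACT3 supplies the counts. Against DMSO the interval of EPOR included 0. Relative to loops of like span the HU intervals of EPOR, WDR88 and GNG8 all included 0, at 0.43, 0.35 and 0.28.

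INSR was lower in HU, with 151 counts in DMSO and 169 in APH, and 172 in H2O and 114 in HU over 6 loops (-0.58, -0.93 to -0.23), and all 6 had fewer counts in HU than in H2O. With loops assigned within 5 kb of the gene start the HU interval of INSR included 0, at -0.44 (-1.15 to 0.25). GADD45B, a stress-inducible gene, had 160, 193, 205 and 158 (-0.36, -0.67 to -0.05), and GNG7, its neighbour, 460, 582, 539 and 459 (-0.22, -0.40 to -0.03). They share a loop of 120 kb, with 42, 56, 73 and 45 counts, called lower in HU. At both genes H2O was the highest library after scaling, and against DMSO the HU ratios were -0.12 and -0.10 with intervals that include 0.

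The gene lists are described by their medians and counts of calls, here with no minimum of counts. On this rule 1.49% of places on all chromosomes were called higher and 1.58% lower for APH, 3.59% and 1.73% for HU, and 0.638% and 0.804% for H2O against DMSO. Over the 15 B lymphocyte places the median log2 ratio was -0.09 for APH, with 6 above 0, and -0.06 for HU, with 5 above 0, where all 269 chromosome 19 places had medians of 0.01 and 0.05. None of the 15 was called in any contrast. POU2F2, for instance, had 266, 325, 307 and 275 counts over 7 shared loops, a ratio of -0.04 for APH and -0.14 for HU. VAV1, a guanine nucleotide exchange factor gene of antigen receptor signalling, had the lowest APH ratio of the list, -0.51, on 59, 52, 64 and 47 counts.

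Of 9 stress response places none was called, with medians of -0.08 for APH and 0.09 for HU. JUNB, an AP-1 subunit gene, had 115, 133, 90 and 122 counts, and its HU ratio of 0.45 (0.05 to 0.86) stands beside an H2O level that is the lowest of the 4 libraries after scaling. FOSB had 454, 539, 470 and 497. Of 12 replication, repair and chromatin places 1 was called lower in APH, the SAE1 described above, and none in HU, with medians of 0.01 and 0.07. ERCC1 had 574, 716, 624 and 638 counts over 11 shared loops, with -0.01 and 0.05, and UHRF1, a partner of DNMT1 at replicated DNA, had 134, 133, 119 and 118, with -0.34 and 0.00.

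Of 13 zinc finger places none was called in a drug contrast and 1, ZNF844 with 18, 32, 37 and 21 counts, was called higher in H2O than in DMSO, with medians of 0.05 for APH and 0.07 for HU. ZNF20 had 289, 353, 327 and 339 counts over 9 shared loops, with -0.04 and 0.07. The ribosomal list had 3 places, with none called and a single one above 0 for APH. Of 10 places on tissue-restricted genes 3 were called higher in HU, namely CEACAM5, CYP2S1 and APOC1, and CEACAM5 also in APH. The CYP2S1 place is the one shared with AXL and HNRNPUL1, and at APOC1 H2O was the low library, with a HU ratio of 0.71 (-0.05 to 1.49) against DMSO. At CACNA1A, the member with most loops, the ratios were -0.07 and -0.02 on 148, 177, 161 and 157 counts. Of the 2 places on genes of other leukocytes KLF1, an erythroid transcription factor gene, was called higher in HU, with 29, 28, 19 and 36 counts (0.94, 0.10 to 1.82), where H2O is the low library.

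Along the chromosome, the window from 40 to 42 Mb, which holds AXL and CEACAM5, had the highest HU ratio among windows with more than 500 counts in each library. It had 505 counts in DMSO and 735 in APH, and 532 in H2O and 656 in HU over 20 shared loops, with log2 ratios of 0.21 (0.05 to 0.38) for APH and 0.32 (0.15 to 0.49) for HU. The window from 6 to 8 Mb, which holds INSR and VAV1, had 963, 1029, 981 and 891, with -0.23 (-0.36 to -0.10) and -0.12 (-0.26 to 0.01). Median spans of the loops were 60 kb in the first and 105 kb in the second, so span moved with the ratio between these windows, and its part was not tested.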

How the data were processed

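SMC1 HiChIP contacts were analysed in 4 GM12878 libraries, 1 for each treatment given in the labels. Chromosome 19, the gene lists and the rule for named genes were chosen with earlier results of these data known. Per the labels' protocols, doubly cross-linked chromatin was processed with a commercial Hi-C kit. Per the submitters' processing notes, bcl2fastq 2.17 and MACS3 3.0.1 were used and the build was hg38, and neither the aligner nor the loop caller is named in the sources used here.

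Each library has 1 loop list, deposited by the authors with no header, so columns were identified from their values. The deposited counts of contacts between 5 kb bins are whole, at least 12, and not normalized. A deposited value taken as the caller's expected count, an adjusted p-value and a cluster score come beside them. Of these, the expected values served in an alternative, and the deposited p-values and scores were not used. The lists hold called loops of 10 to 1000 kb only, so total depth is unknown.

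For loops listed in all 4 libraries, counts were divided by each library's total over those loops on all chromosomes (from 300320 to 376948), with no pseudocount, in Python 3.11.15 with numpy 2.4.6, pandas 2.3.3 and scipy 1.17.1. Ratios carry 95% exact conditional binomial intervals and shares Clopper-Pearson intervals, which cover counting error only. They are not adjusted for the number of loops or genes. With 1 library a group, no p-value was computed. The interval rule was run on counts simulated with counting error only, so this is no check of differences between libraries. Genes came from RefSeq on GRCh38.p14 and were given a loop where an anchor overlapped the gene body. Genes or chromosomes without a promoter in the reference table used were left out of counts of gene starts.

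The named genes are, per drug contrast, up to 10 places in each direction with at least 100 counts, an interval that excludes 1 and a ratio larger in size than that between the vehicles. Named loops are the 10 with most counts, the 3 highest and 3 lowest per contrast, and the shortest and longest. Alternatives changed the scaling, the loops used, the vehicle, the span reference, the expected count, the matching, the minimum count and the assignment to genes.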

Additional observations from a re-analysis of the deposited data

How the results depend on the processing

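With each library scaled by all its listed loops, log2 ratios shift by -0.38 (APH vs DMSO), 0.05 (HU against H2O) and -0.24 (H2O vs DMSO), and the chromosome 19 ratios became -0.37, 0.11 and -0.28. Loops called then numbered 75 for APH (1 higher and 74 lower, in place of 11 and 10), 38 for H2O vs DMSO (0 and 38, in place of 4 and 3) and 35 for HU (27 and 8, in place of 23 and 12), while genes called numbered 29 for APH and 10 for H2O vs DMSO, all lower, and FEM1A in APH turned to -0.084. Relative to loops of like span the chromosome 19 ratio was -0.036 for APH and 0.023 for HU, and 2 genes were called for APH. Divided by expected counts it was 0.044 and 0.027, and against the other vehicle 0.055 and 0.016, with 5 genes called in each drug contrast. Without the interval, 66 loops were called for APH, 83 for HU and 61 for H2O vs DMSO. With genes assigned by an anchor within 5 kb of their start, 2 were called for APH, 5 for HU and 0 for H2O vs DMSO. Among loops of at least 24 counts, 76.0% spanned less than 100 kb in DMSO and 80.1% in APH, and 78.2% in H2O and 81.2% in HU, chromosome 19 held 5.85%, 6.08%, 5.37% and 5.80% of the lists, and 30.5% of loops were in all 4 lists. With counts thinned to the lowest total, 73.7% of the APH loops were short. With anchors matched within 1 bin, 52.7% of loops were in all 4 lists. The cause of these shifts was not tested. Of 19 named results by gene, 11 had an interval that included 0 against the other vehicle, and 7 relative to loops of like span. The lowest count listed, 12, limits single loops, whose intervals commonly span more than the 1.5-fold change called. No paired analysis was possible because the labels give each group the single replicate number 1.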

Other observations

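Loops that APH and HU shared and both vehicles lacked made up 5.61% of chromosome 19 loops, against 5.69% elsewhere, and touched some genes several times. OLFM2, which encodes a secreted olfactomedin protein, had 4 such loops among 12, of 65 to 455 kb, with 65 counts in APH and 57 in HU. KLF2, a transcription factor gene of lymphocyte quiescence and trafficking, had 3 of 9, with 75 and 71 counts, and GNG7 had 3 of 52, with 90 and 90. IRGQ had 3 of 12 and SULT2B1 3 of 14. These genes were taken for having the most such loops, so the numbers are a description. In both vehicles and neither drug library ACTN4, an actinin gene, had 2 loops of 7, with 30 counts in DMSO and 29 in H2O, and GNG7 and SIPA1L3 had 2 of 52 and 2 of 30. ACTN4 also had 2 loops of the first kind, so one gene can stand in both classes, and a pair that is not listed may still hold contacts.

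Of 130 microRNA hairpins on chromosome 19, 31 lay in an anchor bin of some library and 11 in an anchor of a loop shared by all 4. The share expected from the bins used as anchors was not computed. None of the 47 hairpins between 53666679 and 53788773 lay in an anchor, and all lie within the empty stretch from 52540001 described above. These 47 hairpins are thus not independent of one another. Most of them belong to the primate cluster known for expression in placenta, and MIR371A, MIR371B, MIR372 and MIR373 lie beyond it. The hairpins of MIR23A, MIR27A and MIR24-2, a cluster expressed in many blood cells, lay in the bin from 13835001 to 13840000, joined to the NANOS3 start over 25 kb by 59 counts in DMSO and 66 in APH, and 56 in H2O and 51 in HU. The mature forms of the 3′ arms are printed from RefSeq, GRCh38.p14, minus strand, with the seed, bases 2 to 8, in capitals, as the cluster's seeds differ from one another.
hsa-miR-23a-3p: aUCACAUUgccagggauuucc
hsa-miR-27a-3p: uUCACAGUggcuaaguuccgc
hsa-miR-24-3p: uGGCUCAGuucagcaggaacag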
